A study of Mus musculus with 4 samples.

Results

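The 10 genes described here form the oncofetal part of the insulin-like growth factor (IGF) axis: Igf2, H19, Igf2bp1, Igf2bp3, Igf1r, Igf2r, Igfbp1, Igfbp2, Igfbp3 and Igfbp4. They were chosen by gene symbol, and each symbol matched 1 of the 54838 gene rows. Their RNA was measured by RNA-seq in Hepa1-6, a mouse hepatoma cell line that grows in culture and keeps part of the hepatocyte program. The comparison is between NC, which is wild type for Acvr2a (2 libraries), and KO, in which Acvr2a was knocked out (2 libraries). Acvr2a encodes a type II receptor for activins. The series title places this comparison in work on lactate production and regulatory T cells in liver cancer. No treatment is labelled in either group. Where a pair of values is given for a group, it stands in the order of replicates 1 and 2. The labels speak of KO subclones without saying whether KO 1 and KO 2 are separate subclones, so p-values measure only the spread between these libraries, which may be technical.

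IGF2 is a growth factor of the fetal liver that signals through the receptor tyrosine kinase IGF1R and through the insulin receptor, while IGF2R carries no kinase and removes IGF2 by taking it to lysosomes. IGF binding proteins hold secreted IGFs in complexes and set how much ligand is free. IGF2BP1 and IGF2BP3 are RNA-binding proteins of fetal tissue and of many tumours, named for their binding to IGF2 mRNA, and H19 is an imprinted noncoding RNA next to Igf2. Many of these genes are high in fetal liver, low in adult liver and high again in part of liver cancers, which is what oncofetal means.

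Library totals lay between 11597923 and 13910582 estimated counts. The Acvr2a row did not separate the groups, at 81.0 and 108 counts in NC against 74.7 and 97.4 in KO (log2 fold change -0.21, SE 0.20, adjusted p = 0.433 in edgeR's quasi-likelihood test). Acvr2a exons share 446 bases with Orc4 on the other strand, so part of the Acvr2a counts is uncertain if strand was not used in counting. Orc4 had 587 and 692 counts in NC against 391 and 457 in KO. The total RNA of Acvr2a does not show the edited site, which the labels do not give, so every group below stands as the libraries are labelled, and every direction rests on those labels. Of the 12510 genes tested in the edgeR fit, 2459 (19.7%) were higher and 2282 (18.2%) lower in KO (adjusted p below 0.05), with a median log2 fold change of -0.0037. In a fit on log2(TPM + 1), TPM being the length-scaled transcript abundance, the split was 1467 higher and 691 lower. Hepatocyte markers were abundant: 9 of 10 passed the filter on low counts, with Krt18 from 1063 to 1190 CPM, counts scaled to library size, and Alb from 758 to 1151 CPM, but Ttr had 0 or 1 count in each library. Of 10 leukocyte markers 2 passed, Cd3e had 0 counts in all 4 libraries and Ptprc had at most 2. The 10 summed to 24.5 and 28.2 CPM in NC and 51.8 and 64.0 CPM in KO, nearly all of it the lysosomal protein gene Cd68 (log2 fold change 1.20, adjusted p = 1.34e-08). Of 10 stellate cell and fibroblast markers 4 passed and 3 were higher in KO, namely Col1a1, Pdgfra and Des, of which Col1a1 (6 and 5 counts in NC) passed only through KO and so had to differ. Col3a1, Lum, Reln and Lrat had 0 counts, and the 10 summed to 1485 and 1494 CPM in NC and 1640 and 1719 CPM in KO, nearly all of it Dcn. The 10 endothelial markers summed to at most 1.06 CPM, with Cdh5, Tek, Lyve1, Clec4g, Erg and Emcn at 0. The part of these marker genes in the results below was not tested. In bulk RNA, fewer cells of a type and less RNA per cell cannot be told apart.

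The promoters of Igf2r, Igfbp1 and Igfbp4, whose groups did not overlap on either scale used below, and of Igfbp3, the neighbour of Igfbp1, are printed here to show the letters around each start site. RefSeq windows on GRCm38.p6, from 250 bases before to 50 after a gene's start, held 8 of the 10 members and not H19 or Igf2bp1. They are reference sequence, 5′ to 3′ on the gene's strand, not read from these cells. Capitals mark the motif letters named after each window, which were chosen after the promoters were read and searched on both strands.

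Igfbp1 (chr11:7197537-7197836, plus strand), with the insulin response core CAAAACA in capitals at -108 and a hypoxia response core GCGTG, which lies on the other strand and reads CACGC here, at -74:
Igfbp1: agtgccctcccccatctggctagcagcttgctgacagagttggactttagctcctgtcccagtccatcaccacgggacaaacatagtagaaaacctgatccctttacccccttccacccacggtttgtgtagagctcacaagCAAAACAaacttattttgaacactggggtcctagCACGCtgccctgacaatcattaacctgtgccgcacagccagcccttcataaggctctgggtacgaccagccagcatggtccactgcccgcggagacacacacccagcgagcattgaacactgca
Igfbp3 (chr11:7213874-7214173, minus strand), with the core GCGTG in capitals at -188 and -55:
Igfbp3: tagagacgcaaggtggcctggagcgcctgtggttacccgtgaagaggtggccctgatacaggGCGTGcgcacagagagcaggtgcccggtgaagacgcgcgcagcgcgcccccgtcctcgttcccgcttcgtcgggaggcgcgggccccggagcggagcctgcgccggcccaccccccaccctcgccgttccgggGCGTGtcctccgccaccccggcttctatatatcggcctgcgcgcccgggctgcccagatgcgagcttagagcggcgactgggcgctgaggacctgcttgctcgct
Igfbp4 (chr11:99040994-99041293, plus strand), with a TATA box TATAAA in capitals at -28:
Igfbp4: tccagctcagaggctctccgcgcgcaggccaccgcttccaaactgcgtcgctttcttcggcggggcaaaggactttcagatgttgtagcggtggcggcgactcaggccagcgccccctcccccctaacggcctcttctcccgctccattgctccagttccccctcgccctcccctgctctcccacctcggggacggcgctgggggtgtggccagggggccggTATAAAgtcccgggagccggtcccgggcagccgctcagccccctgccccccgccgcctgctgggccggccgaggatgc
Igf2r (chr17:12769657-12769956, minus strand), with the E-box TCACGTG, the kind found before many lysosomal genes, found on both strands with overlap at -49 and -48 and again at -8 and -7, in capitals:
Igf2r: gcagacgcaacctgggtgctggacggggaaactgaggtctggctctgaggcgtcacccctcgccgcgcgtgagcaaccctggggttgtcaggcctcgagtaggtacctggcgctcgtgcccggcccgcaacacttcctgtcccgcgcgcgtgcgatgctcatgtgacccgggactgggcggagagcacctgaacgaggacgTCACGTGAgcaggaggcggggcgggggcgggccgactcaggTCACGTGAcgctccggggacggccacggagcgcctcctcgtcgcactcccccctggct

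Of all 32851 windows of 300 bases, CAAAACA was in 6.28%, GCGTG in 32.4%, TATAAA in 13.6% and TCACGTG in 3.77%. TCACGTG was also in the window of Igf2bp3, at -24 and -23. The Igf2r window also held GCGTG at -184 and -103, the GC box GGGCGG 3 times, at -75, -31 and -25, a motif of 35.7% of windows, and the core ACGTG, which the E-box contains and which 19.6% of windows hold. The 3.5 kb between Igfbp1 and Igfbp3 separates the tail ends of these genes, and their promoters lie at the outer sides of the pair. These promoters differ in base composition. The Igfbp1 window was 54.3% G and C with 8 CpG dinucleotides, and the Igfbp3 window was 71.7% with 37, against a median of 52.7% and 7 over all windows. Igfbp4 was at 71.3% and Igf2r at 70.7%. A match is a description of the letters only, and binding was not measured.

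Hepa1-6 cells expressed the binding proteins Igfbp1, Igfbp3 and Igfbp4 and the RNA-binding proteins Igf2bp1 and Igf2bp3, but the ligand gene Igf2, its neighbour H19 and the receptor Igf1r were at a few counts. In TPM, which is per length and so allows levels of different genes to be compared, the order in every library was Igfbp4, Igfbp1, Igfbp3, Igf2bp1, Igf2bp3 and Igf2r. Igfbp4 stood between rank 129 and 191 of all genes by TPM, Igfbp1 between 169 and 241, and Igfbp3 between 540 and 620. No neighbours in this order overlapped in their TPM values within a group. Below Igf2r, the order of Igf2, H19, Igf1r and Igfbp2 is not determined, since each rests on 24 counts or fewer per library. The binding proteins together made up 97.0% and 96.5% of the 10 genes' TPM in NC and 96.1% and 96.5% in KO.

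**Figure D1:**
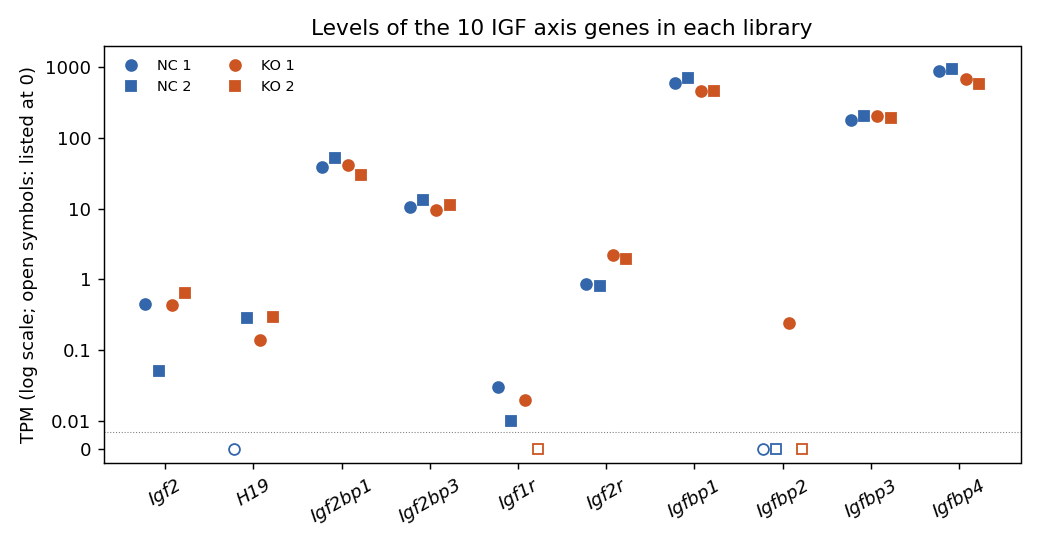
TPM of the 10 genes in each of the 4 libraries on a log axis, with NC in blue and KO in orange; open symbols below the dotted line stand for libraries in which a gene is listed at 0. Igfbp4, Igfbp1 and Igfbp3 lie above 100 TPM in all 4 libraries, while Igf2, H19, Igf1r and Igfbp2 lie below 1 TPM.

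Across the axis, 7 of the 10 genes passed the filter and were tested, and 6 of them were called, 2 higher and 4 lower in KO, where 37.9% of all tested genes were called (19.7% higher and 18.2% lower). Igf2r rose, and the secreted binding proteins Igfbp1 and Igfbp4 and the RNA-binding proteins Igf2bp1 and Igf2bp3 fell. Igf2 is the other gene called higher, but it passed the filter only through the KO libraries and so had to differ, and the count of 6 is no support for any shared behaviour. Igfbp3 did not pass the threshold. The CPM values of the groups did not overlap for the 6 called genes, as was true of 69.4% of all tested genes. The members called were 5 with DESeq2, where 25.7% of tested genes were called, and 3 on log2(TPM + 1) (17.3%) and with effective length as an offset (23.1%). In TPM the groups did not overlap for 3 of the 7 (Igf2r, Igfbp1 and Igfbp4), against 62.7% of tested genes. The median log2 fold change of the 7 was -0.28, beside -0.0037 over all tested genes.

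**Figure D2:**
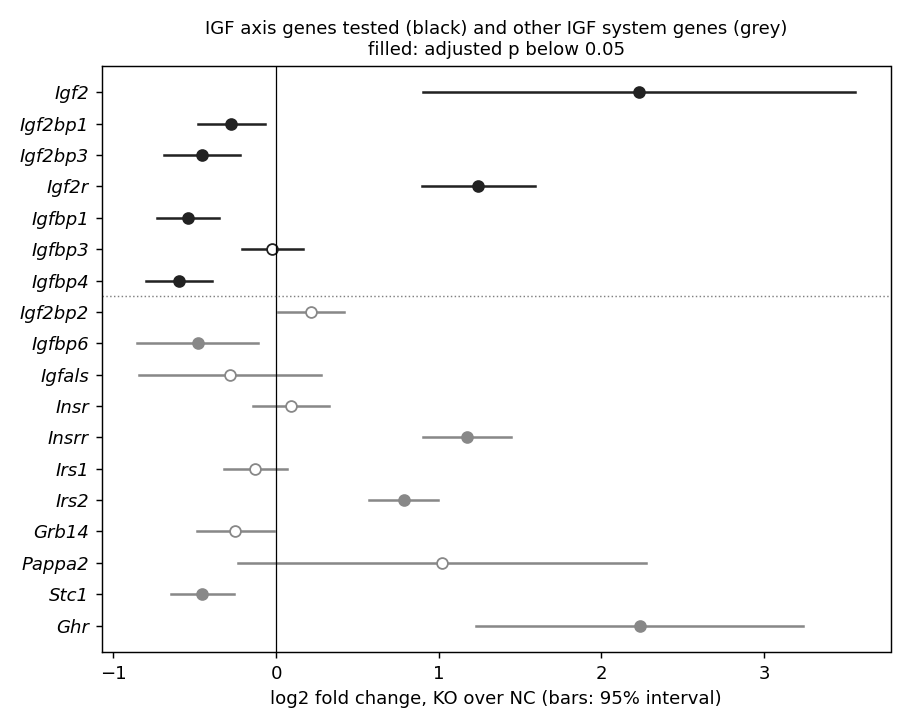
Log2 fold changes of KO over NC with 95% intervals for the 7 tested genes (black) and 11 other tested genes of the IGF system (grey), filled where the adjusted p is below 0.05. The interval of Igf2 (0.90 to 3.56) is the widest, followed by that of Pappa2 (-0.23 to 2.27), and that of Igfbp3 spans 0.

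Igf2, the ligand gene (chr7:142650766-142666816, minus strand), had 6 and 2 counts in the NC libraries and 17 and 24 in the KO libraries. Both KO libraries were above both NC libraries, at a level where 3 counts are worth 0.217 to 0.264 CPM. Pooled over a group, 8 counts in NC gave 0.317 CPM (exact Poisson 95% interval 0.137 to 0.625) and 41 in KO gave 1.54 CPM (1.10 to 2.08). These intervals cover counting error only. The log2 fold change was 2.23 (SE 0.65, 95% interval 0.90 to 3.56, adjusted p = 0.00327, edgeR quasi-likelihood). The call rested on NC 2, since without it the value was 1.53 with an adjusted p of 0.0589.

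Igf2 has several promoters and transcripts of different length, and its effective length, the authors' estimate weighted by transcript, was 1250 bases in NC 1 against 3061 to 3464 in the other libraries. In TPM the groups overlapped, at 0.45 and 0.05 in NC and 0.43 and 0.64 in KO. With the effective length as an offset the log2 fold change was 1.66 with an adjusted p of 0.173, and on log2(TPM + 1) it was 0.31 with an adjusted p of 0.281. Igf2 exons share 3596 bases with the predicted gene Gm49394 on the same strand and 98 with Igf2os on the other, both of which had 0 counts in all 4 libraries. Igf2os, an antisense RNA of the same imprinted locus, was therefore not detected.

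H19 (chr7:142575529-142578143, minus strand), the imprinted RNA 72.6 kb from Igf2, had 0 and 2 counts in the NC libraries and 2 and 3 in the KO libraries. It stayed under the filter, and neither group can be ranked at this depth: pooled, 2 NC counts gave an upper 95% limit of 0.286 CPM and 5 KO counts one of 0.437 CPM. The microRNA gene Mir675, which lies in an H19 exon, had 0 counts, although mature microRNAs are shorter than this library type is made to keep. Neither Igf2 nor H19 reached 1 TPM in any library.

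Igf2bp1 (chr11:95957163-96005940, minus strand), a fetal RNA-binding protein that stabilises bound mRNAs, had 86.5 and 98.3 CPM in the NC libraries and 82.9 and 70.0 in the KO libraries. Both KO values were below both NC values, but KO 1 lay closer to NC 1 than to KO 2. The means were 92.4 ± 8.35 CPM in NC and 76.4 ± 9.14 in KO (SD, n = 2 each). The log2 fold change was -0.28 (SE 0.10, adjusted p = 0.0326, edgeR quasi-likelihood). That call was lost with DESeq2 (adjusted p = 0.0973), without NC 2 (-0.17, adjusted p = 0.319) and without KO 2 (-0.16, adjusted p = 0.306).

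Igf2bp3 (chr6:49085223-49214957, minus strand), its close relative, had 40.0 and 49.4 CPM in the NC libraries and 33.9 and 31.4 in the KO libraries. The KO libraries were close to each other and below both NC libraries. The means were 44.7 ± 6.63 CPM in NC and 32.7 ± 1.80 in KO (SD, n = 2 each), and the log2 fold change was -0.46 (SE 0.11, adjusted p = 0.00233, edgeR quasi-likelihood). Without NC 2 it was -0.29 with an adjusted p of 0.117. Igf2bp3 overlaps Malsu1, a mitochondrial ribosome assembly gene on the other strand, over 1529 exonic bases, so their reads cannot be told apart without strand. Malsu1 itself had a log2 fold change of 0.02 (adjusted p = 0.913).

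Per length, neither RNA-binding protein separated the groups. The effective length of Igf2bp1 ran from 2095 bases in NC 2 to 2566 in KO 2, and its TPM was 39.4 and 52.4 in NC and 42.0 and 30.3 in KO. That of Igf2bp3 was 3131 bases in KO 2 against 3979 to 4099 elsewhere, and its TPM was 10.7 and 13.4 in NC and 9.58 and 11.1 in KO. With the length as an offset the log2 fold changes were -0.42 for Igf2bp1 (adjusted p = 0.0792) and -0.29 for Igf2bp3 (adjusted p = 0.179). Each gene has short processed or intron-retaining transcripts beside its full mRNA, which for Igf2bp1 is 8378 bases and for Igf2bp3 4345 bases. The ratio of Igf2bp1 to Igf2bp3 counts was 2.16 and 1.99 in NC and 2.44 and 2.23 in KO. The third family member, Igf2bp2, which adult tissues keep, was at 57.6 CPM in NC and 66.7 in KO, with an adjusted p of 0.0835.

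**Figure D3:**
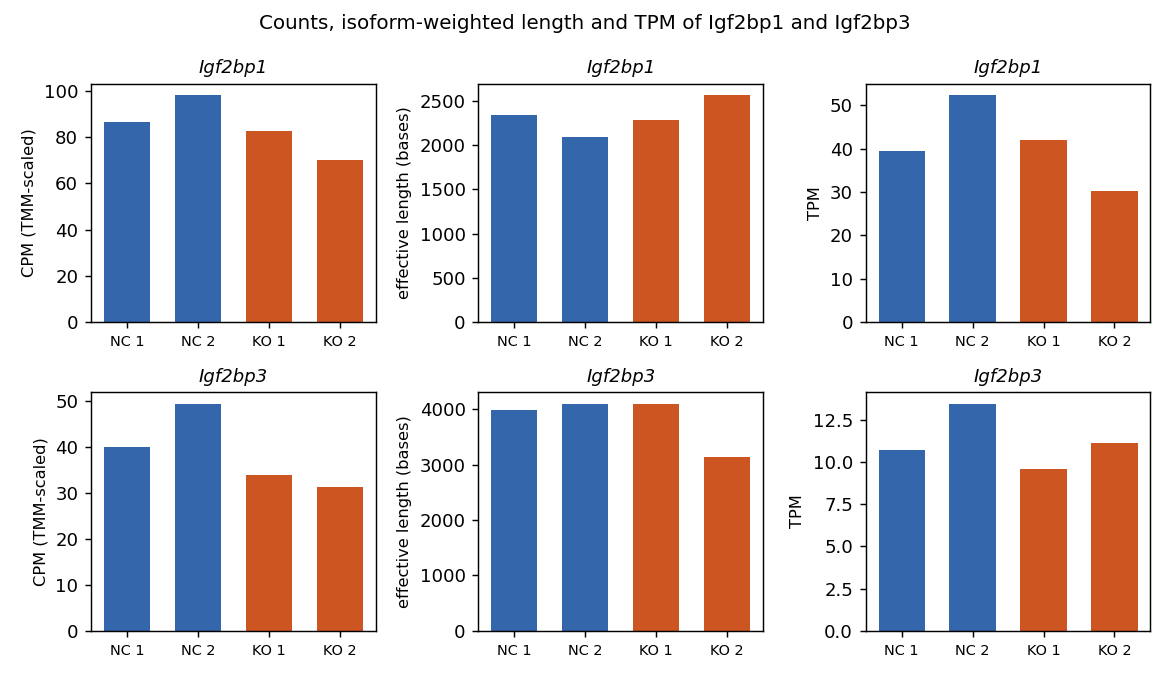
CPM, effective length in bases and TPM of Igf2bp1 (upper row) and Igf2bp3 (lower row), 1 bar per library, NC in blue and KO in orange, axes from 0. In CPM both KO bars lie under both NC bars, whereas in TPM KO 1 lies above NC 1 for Igf2bp1 and KO 2 above NC 1 for Igf2bp3.

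Igf2r (chr17:12682406-12769664, minus strand), the cation-independent mannose 6-phosphate receptor, which clears IGF2 and sorts lysosomal enzymes, had 79 and 87 counts in the NC libraries and 214 and 203 in the KO libraries. Both KO libraries were far above both NC libraries, and the spread within a group was small beside that gap. In CPM the means were 6.62 ± 0.471 in NC and 15.6 ± 0.859 in KO (SD, n = 2 each). The log2 fold change was 1.24 (SE 0.17, 95% interval 0.89 to 1.59, adjusted p = 1.79e-06, edgeR quasi-likelihood), a 2.37-fold rise. In TPM it went from 0.85 and 0.81 in NC to 2.18 and 1.93 in KO. On log2(TPM + 1), a scale that understates the change of low genes, the value was 0.74 and still past the threshold (adjusted p = 0.0182).

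Airn, the antisense noncoding RNA that starts within Igf2r and silences the paternal Igf2r allele in most mouse tissues, had 50 and 62 counts in NC against 89 and 128 in KO. Its log2 fold change was 0.87 (SE 0.23, adjusted p = 0.00301, edgeR quasi-likelihood), and 0.60 with an adjusted p of 0.117 without KO 2. The 2 genes share 0 exonic bases, and reads from unspliced RNA of either strand were not separated here. The other mannose 6-phosphate receptor gene, M6pr, did not pass the threshold (log2 fold change -0.01, adjusted p = 0.933), and its difference from Igf2r was not tested.

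Igf1r (chr7:67952827-68233668, plus strand), the signalling receptor, had 3 and 1 counts in NC against 2 and 0 in KO, and at most 0.03 TPM. With 4 counts in all NC and 2 in all KO, the pooled upper 95% limits were 0.406 and 0.271 CPM, and no difference was detectable. By comparison the insulin receptor gene Insr was at 40.5 CPM in NC and 43.3 in KO (adjusted p = 0.552), so of the 2 tyrosine kinase receptors that bind IGF2, RNA of one was plainly detected.

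Igfbp1 (chr11:7197782-7202546, plus strand), a liver-secreted binding protein whose gene insulin represses through FoxO factors, had 726 and 803 CPM in the NC libraries and 518 and 532 in the KO libraries. Both KO libraries were below both NC libraries, and they lay closer together than the NC libraries did. The means were 764 ± 54.2 CPM in NC and 525 ± 10.04 in KO (SD, n = 2 each). The log2 fold change was -0.54 (SE 0.09, adjusted p = 5.33e-05, edgeR quasi-likelihood). Igfbp1 has 1 annotated transcript, and its TPM was 600 and 699 in NC and 468 and 460 in KO.

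Igfbp4 (chr11:99041244-99054392, plus strand), which mostly inhibits IGF action and is cleaved by pappalysins, had 2133 and 2169 CPM in the NC libraries and 1541 and 1306 in the KO libraries. It was the most abundant of the 10 genes in every library, and both KO values were below both NC values. The means were 2151 ± 25.3 CPM in NC and 1423 ± 166 in KO (SD, n = 2 each), and the log2 fold change was -0.60 (SE 0.10, adjusted p = 3.46e-05, edgeR quasi-likelihood). In TPM it went from 885 and 935 in NC to 677 and 574 in KO.

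Igfbp3 (chr11:7206086-7213923, minus strand), the main carrier of IGFs in blood, lies tail to tail with Igfbp1 and had 364 and 396 CPM in the NC libraries and 375 and 373 in the KO libraries. Both KO values lay between the NC values. The log2 fold change was -0.02 (95% interval -0.21 to 0.16, adjusted p = 0.868, edgeR quasi-likelihood), and its sign changed on the TPM scale and without NC 2. On log2(TPM + 1) its value, 0.0349, was below the median of all tested genes, 0.0596, which was -0.0037 in the reported fit. Igfbp2 (chr1:72824503-72852474, plus strand), a binding protein that is high in fetal liver, had 2 counts in KO 1 and 0 in the other 3 libraries. Pooled over NC, 0 counts gave an upper 95% limit of 0.146 CPM (exact Poisson).

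The expressed binding proteins were also set against each other within each library. The TPM ratio of Igfbp1 to Igfbp3 was 3.35 and 3.42 in NC against 2.33 and 2.40 in KO, and that of Igfbp4 to Igfbp3 was 4.94 and 4.57 in NC against 3.36 and 2.9998 in KO. For both ratios the groups did not overlap, as they did not for the TPM of Igfbp1 and Igfbp4 themselves, so the ratios are no separate support. That of Igfbp4 to Igfbp1 was 1.47 and 1.34 in NC against 1.45 and 1.25 in KO, and there the groups overlapped. With 2 libraries against 2, the smallest p of a two-sided exact permutation test is 0.333. None of the 4 ratios computed can therefore pass a threshold. Both ratios to Igfbp3 and that of Igf2bp1 to Igf2bp3 counts reached 0.333 (0.444 adjusted over the 4 ratios). The 4 binding proteins summed to 1664 and 1839 TPM in NC and 1346 and 1225 TPM in KO.

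The 20 other genes of the IGF system hold further ligands, receptors, adaptors and proteases. Of the 11 tested, 3 were higher and 2 lower in KO, with a median of 0.09, and 6 had 0 counts in all libraries. The share called was 45.5%, beside 37.9% of all tested genes, in a list chosen with earlier results of these data known. Of the adaptors and receptors, Irs2, the insulin receptor substrate most used in liver, rose from 47.1 and 51.0 CPM in NC to 77.0 and 92.1 in KO (log2 fold change 0.78, adjusted p = 1.20e-06, edgeR quasi-likelihood). Insrr, an insulin receptor relative that senses alkaline pH, rose from 13.99 and 13.86 to 30.4 and 32.5 CPM (1.17, adjusted p = 8.60e-08). In both genes the KO libraries lay above the NC libraries without overlap. Ghr, the growth hormone receptor, had 8, 6, 41 and 30 counts and, like Igf2, passed the filter only through KO (2.24, adjusted p = 0.000294).

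Stc1, whose protein inhibits pappalysins, fell from 163 and 177 CPM to 131 and 117 (-0.45, adjusted p = 0.000436, edgeR quasi-likelihood). Igfbp6, a binding protein that prefers IGF2, was called lower (-0.48, adjusted p = 0.0356), a call lost when any 1 library was left out, with adjusted p from 0.0506 to 0.181. Irs1 was at 110 CPM in NC and 101 in KO (adjusted p = 0.311), and Igfals, Grb14 and Pappa2 did not pass the threshold either. Igf1 had 1, 1, 0 and 0 counts, and Grb10 had 4 counts in NC 2 alone. Igfbp7 was under the filter at 6, 5, 13 and 4 counts. Ins2, Igfbp5, Irs4, Pappa and Stc2 had 0 counts, as did Igf2os.

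Downstream of these receptors, all 22 genes of the PI3K, AKT and mTOR relay were tested, 6 higher and 2 lower in KO, with a median of 0.13. The share called, 36.4%, was near the 37.9% of all tested genes, so the count says nothing particular about this list. Foxo3, a transcription factor that AKT inhibits, rose from 76.2 to 110 CPM (log2 fold change 0.53, adjusted p = 5.31e-05), and Rictor, a subunit of the mTOR complex that phosphorylates AKT, rose from 79.3 to 116 CPM (0.55, adjusted p = 0.000117, edgeR quasi-likelihood). Pdpk1, the kinase that activates AKT, rose by 0.44 (adjusted p = 0.000789). Akt1 fell from 302 to 210 CPM (-0.53, adjusted p = 4.20e-05), and the other gene that fell was Rheb, an activator of mTOR (-0.45, adjusted p = 0.00158), named after its value was seen. Without NC 1 the list held 5 called genes.

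FoxO target genes matter here because Igfbp1 and Irs2 are both textbook members of that class. Of 12 listed, 9 were tested, 4 were higher and 1 lower, with a median of 0.35. The share called was 55.6%, beside 37.9% of all tested genes, in a list chosen with earlier results of these data known. Txnip, a thioredoxin inhibitor that also responds to glucose, went from 155 and 165 CPM in NC to 778 and 994 in KO (log2 fold change 2.47, adjusted p = 3.07e-15), and Gadd45a, a growth arrest gene, from 5.37 and 4.405 to 18.5 and 16.9 CPM (1.86, adjusted p = 4.94e-09, edgeR quasi-likelihood). Sesn3, an inhibitor of mTOR signalling, rose by 0.67 (adjusted p = 5.53e-05), and Irs2 rose as given above, whereas Igfbp1 fell. The gene that was lower, named after its value was seen, was Ppargc1a, a coactivator of liver fasting genes (-0.85, adjusted p = 0.00106). That call held in 9 of 13 alternatives. On log2(TPM + 1), where the Ppargc1a value was -0.32, and with effective length as an offset, no gene of the list was called lower. Pck1 had 1 count in KO 1 and G6pc had none, so the fasting enzymes of this list were not detectable.

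Among 16 oncofetal liver genes, 10 were tested, 4 higher and 5 lower, with a median of 0.12. The share called was 90%, beside 37.9% of all tested genes, in a list chosen with earlier results of these data known. Of the 10, DESeq2 called 6, where 25.7% of all tested genes were called. On log2(TPM + 1) 4 were called (17.3% of all), and with effective length as an offset 5 (23.1% of all). Afp, the fetal serum protein used as a liver tumour marker, fell from 281 and 254 CPM in NC to 114 and 116 in KO (log2 fold change -1.21, adjusted p = 1.01e-10), while Gpc3, a fetal proteoglycan, rose from 1.85 and 1.23 to 9.94 and 10.4 CPM (2.74, adjusted p = 4.82e-09, edgeR quasi-likelihood). The chromatin protein gene Hmga1 fell by 0.50 on the log2 scale (adjusted p = 0.000152), and the transcription factor gene Sox4 rose by 0.48 (adjusted p = 0.000216). The classic oncofetal markers thus went in opposite directions. Named after their values were seen, Epcam (0.58) and Prom1 (1.85) were the other genes called higher (Prom1, at 7 and 4 counts in NC, passed the filter only through KO and so had to differ), and Hmga2 (-0.85), Sox9 (-0.52) and Cd24a (-0.24) the others called lower. The calls of Prom1, Hmga2 and Cd24a each ended without NC 2 (1.38, -0.60 and -0.14). Without KO 2 those of Prom1 (1.45), Hmga2 (-0.77) and Epcam (0.43) ended, and without KO 1 that of Cd24a (-0.19). Lin28a, Dlk1, Sall4 and Peg10 had 0 counts.

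Of 21 imprinted genes, the class to which Igf2, H19 and Igf2r belong, 12 had 0 counts in every library and 4 were tested. Of those 4, 50% were called, beside 37.9% of all tested genes, in a list chosen with earlier results of these data known. The 2 called, both higher, were Airn and Kcnq1ot1, an antisense RNA of the imprinted domain beside Igf2 (0.53, adjusted p = 0.0036, edgeR quasi-likelihood), and the median of the 4 was 0.70, with Nnat among them having passed the filter only through KO. Without NC 2 the Kcnq1ot1 value was 0.41 with an adjusted p of 0.0674, and the list's count ran from 1 to 4 as 1 library was left out (1 without NC 2 or KO 2, 4 without KO 1). Cdkn1c and Phlda2, the growth-limiting coding genes of that domain, and Meg3, Peg3 and Plagl1 were among those at 0.

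Transcripts known to be bound by IGF2BP proteins were tested for 9 of 11 genes, with 1 higher, 2 lower and a median of -0.22. The share called, 33.3%, was near the 37.9% of all tested genes, so the count says nothing particular about this list. Ccnd1, cyclin D1, fell from 999 to 742 CPM (log2 fold change -0.43, adjusted p = 0.000844), Hmga2 fell as given above, and Btrc, a ubiquitin ligase subunit, rose (0.34, adjusted p = 0.00895, edgeR quasi-likelihood). The Btrc call ended without NC 1 (0.32, adjusted p = 0.0635), and the list's count was 5 without KO 1. On log2(TPM + 1) none of the 9 was called.

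Of 17 genes on the mannose 6-phosphate route, the lysosomal enzymes and sorting factors that IGF2R serves, all were tested, 7 higher and 4 lower, with a median of 0.11. The share called was 64.7%, beside 37.9% of all tested genes, in a list chosen with earlier results of these data known. On log2(TPM + 1) 4 of the 17 were called higher and 0 lower, where 17.3% of all tested genes were called. The largest difference was at Naglu, a lysosomal glucosaminidase, which rose from 9.499 and 10.11 CPM in NC to 17.9 and 20.8 in KO (log2 fold change 0.98, adjusted p = 1.30e-05, edgeR quasi-likelihood). Man2b1, a mannosidase, rose by 0.46 (adjusted p = 0.000754) and Gla, a galactosidase, by 0.57 (adjusted p = 0.00216), while Hexa, a hexosaminidase subunit, fell by 0.44 (adjusted p = 0.00128). Named after their values were seen, the other 3 that were lower were Nagpa (-0.52), Gusb (-0.38) and Lamp1 (-0.26). The Nagpa call ended without NC 2 (-0.43), that of Gusb without KO 2 (-0.23), and that of Lamp1 without NC 1 (-0.29) or NC 2 (-0.24). Cd68, the leukocyte-list gene that was higher in KO, is also lysosomal, and its part in these counts was not tested.

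**Figure D4:**
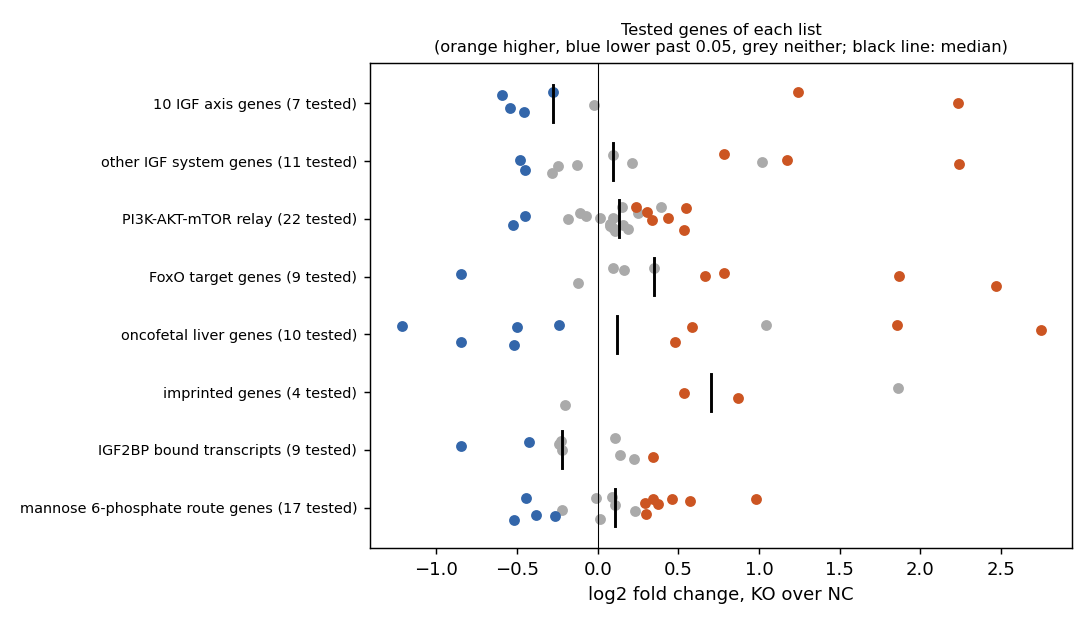
Log2 fold change of KO over NC for each tested gene of the 10 IGF axis genes and of 7 related lists, with genes called higher in orange, called lower in blue and the rest in grey; the black line is the list's median. Medians run from -0.28 for the IGF axis genes to 0.70 for the 4 tested imprinted genes, and all but the imprinted list hold called genes on both sides of 0.

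Among the list genes called and named here, Irs2, Stc1, Txnip, Gadd45a, Hmga1, Hmga2, Sox4, Kcnq1ot1, Btrc, Ccnd1, Hexa, Prom1, Lamp1, Pdgfra and Des share exonic bases with a gene on the other strand, as do Irs1 and Igfbp7, which were not called, so part of their counts is uncertain if strand was not used in counting. On log2(TPM + 1) the calls of Stc1 (adjusted p = 0.0763), Pdpk1 (0.104), Gla (0.0516), Hexa (0.0952), Ccnd1 (0.331) and Kcnq1ot1 (0.610) were among those that ended in limma. Those of Irs2, Insrr, Ghr, Txnip, Gadd45a, Sesn3, Akt1, Foxo3, Rictor, Afp, Gpc3, Hmga1, Sox4, Naglu and Man2b1 held in every alternative but TPM without a filter. How far each value of the 7 tested genes moved with the scale, the filter and the libraries used is drawn in the plot of fold changes by setting.

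**Figure D5:**
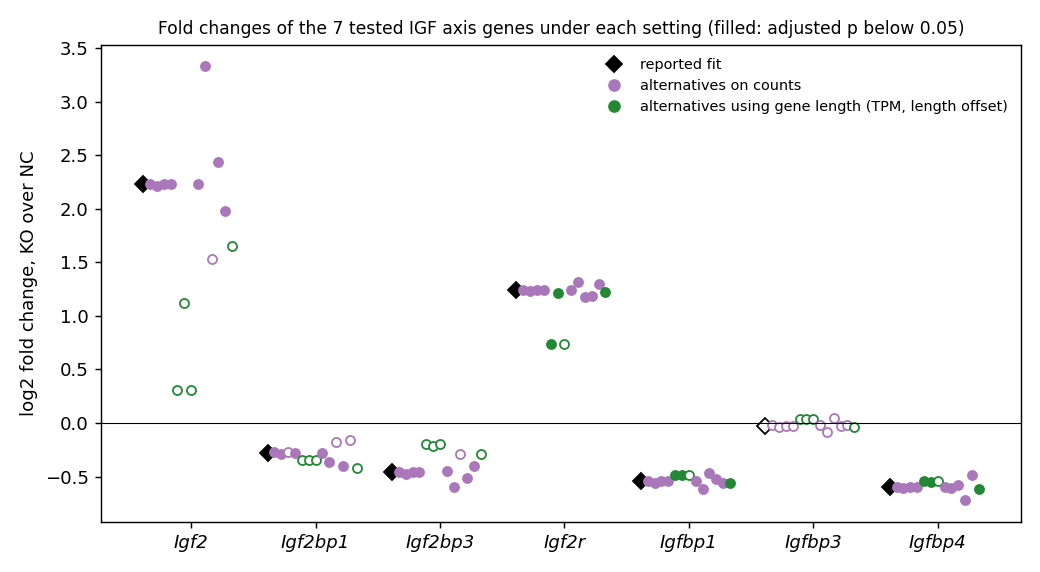
Log2 fold change of each tested IGF axis gene in the reported fit (black diamond), in alternatives on counts (purple) and in alternatives that use gene length (green), filled where the adjusted p is below 0.05. Igf2r, Igfbp1 and Igfbp4 are filled in all but the fit on TPM without a filter, while Igf2, Igf2bp1 and Igf2bp3 are open in every alternative that uses gene length.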

How the data were processed

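RNA of 4 Hepa1-6 libraries (NC 1, NC 2, KO 1, KO 2) was sequenced from a directional kit, per the labels' protocols. Each deposited file lists 54838 genes. Its expected counts are the authors' estimated reads per gene, its TPM and FPKM are the authors' length-scaled values, and its effective lengths are transcript-weighted, per the file headers. FPKM was not used. STAR, RSEM, FastQC and DESeq2 and the builds GRCm38 and mm10 are named per the submitters' processing notes, and versions, annotation release and strand setting are not given in the sources used here. RSEM can exchange counts between near-identical genes.

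Expected counts were rounded to whole numbers (totals changed by at most 0.000188%). Genes were filtered with filterByExpr (minimum count 10), which left 12510 genes, with 8069 under it and 34259 at 0 in all libraries. TMM factors were 0.981 to 1.02. KO was set against NC by the quasi-likelihood test of edgeR (edgeR 4.0.16, R 4.3.3; prior degrees of freedom 25.8), with group as the only term and Benjamini-Hochberg adjustment over all tested genes at a threshold of 0.05. CPM values use the TMM-scaled library size. Alternatives used limma 3.58.1 on log2(TPM + 1) or log2(TPM + 0.1), DESeq2 1.42.0, other scaling and filters, a replicate block, and each library left out. An offset of effective length was chosen after seeing the data. GENCODE M21 (GRCm38) gave coordinates and overlaps, matched for 54809 gene IDs without the version number and 53947 with it, 1-based. Promoter windows are from RefSeq.

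The 10 members and all lists were chosen with earlier results of these data known. Named genes are the 10 members, Acvr2a, all other IGF system genes, up to 4 genes per list with the lowest p past the threshold, the nearest tested neighbours, and for Igfbp4 and Igfbp1 the 3 genes with the most similar profile over the 4 libraries. Others, among them M6pr, Malsu1 and cell type markers, were named after their values were seen. Some genes that the rule or a list would name are not reported here.

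On simulated counts (12448 genes), the fit called 55.2% of 67 genes changed by 0.5 on the log2 scale with the right sign, 80.0% of 65 changed by 1 and 100% of 66 changed by 2, and 0.0653% of 12250 unchanged genes. These counts were drawn with the dispersions of the same fit, and far fewer genes were changed than were called in the data. The shares are therefore not error rates of the real fit. Counts may hold PCR copies.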

Additional observations from a re-analysis of the deposited data

How the results depend on the processing

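The calls of Igf2r, Igfbp1 and Igfbp4 held in 12 of 13 alternatives, the exception being TPM without a filter, where edgeR was replaced by limma and 0 of 20640 genes were called (4506 at an unadjusted p under 0.05) and 0 of the 10 members (3 unadjusted). The 6 calls among the members became 3 on log2(TPM + 1), on log2(TPM + 0.1) and with the length offset, where 2158, 2099 and 2892 genes were called in all, instead of 4741. DESeq2 called 3217 genes and 5 members. The calls lost with length were those of Igf2, Igf2bp1 and Igf2bp3, whose effective lengths differed between libraries, and the cause was not tested. Leaving out 1 library gave 3586 to 4472 genes and 3 (without NC 2) to 6 members.

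The labels state no pairing of equal replicate numbers. The deviations of NC 1 and KO 1 from their group means had r = -0.0116. With 2 libraries per group, every other pair gives the same value or its opposite, so handling shared by replicate number was not tested. With the number as a replicate block, 5006 genes and 6 members were called.

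Signs changed for named genes that did not pass the threshold. Igfbp3 went to 0.0349 (TPM + 1, with and without filter) and 0.0351 (TPM + 0.1), and lay between -0.0824 and 0.0446 (without NC 2) with 1 library left out. With 1 library left out Insr lay between -0.0406 (without KO 2; -0.0321 without NC 1) and 0.245, Snf8 between -0.166 and 0.0615 (without KO 2), Mrpl18 between -0.486 and 0.0591 (without KO 2), Malsu1 between -0.0910 (without KO 2; -0.00324 without NC 2) and 0.133, and M6pr between -0.103 and 0.0745 (without KO 1). On gene length, signs changed for Tns4 to -0.0736 (TPM + 1, with and without filter), -0.0781 (TPM + 0.1) and -0.140 (length offset) and M6pr to 0.0367 (TPM + 1, with and without filter) and 0.0371 (TPM + 0.1). In the TPM fits the median of all tested genes was 0.0596 (TPM + 1) and 0.0701 (TPM + 0.1), above the values of Igfbp3, M6pr and Tns4 there. Of 91 values of members under an alternative, 67 kept direction and call, 20 lost the call and 4 changed sign. Of 897 for the other named genes, 731 kept both, 147 lost the call, 5 gained it and 14 changed sign. With 2 libraries per group, differences of genes at a few counts (H19, Igf1r, Igfbp2) were not detectable.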

Other observations

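The genes next to the IGF axis genes on their chromosomes, taken as the nearest tested gene on each side, gave these values (log2 fold change of KO over NC, edgeR quasi-likelihood with Benjamini-Hochberg adjustment). Adcy1, an adenylyl cyclase gene 19.3 kb from Igfbp1, fell from 41.1 to 25.9 CPM (-0.67, adjusted p = 4.70e-05). Igfbp3 on the other side of Igfbp1 did not pass the threshold, and beyond it Tns3 rose (0.52, adjusted p = 0.00026) at a distance of 1218 kb from Igfbp3. Gpnmb, a lysosomal and melanosomal glycoprotein gene 14.3 kb from Igf2bp3, fell from 559 to 295 CPM (-0.92, adjusted p = 1.15e-08), and Tra2a on the other side did not pass (adjusted p = 0.166).

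Around the Igf2 and H19 locus, Mrpl23, 34.8 kb from H19, was lower (-0.34, adjusted p = 0.0108), a call that ended without NC 1 and without KO 2 (-0.28 in both). Ascl2, an imprinted transcription factor gene 300013 bases from Igf2, went from 0.349 to 1.68 CPM (2.21, adjusted p = 0.00198), but passed the filter only through the KO libraries and so had to differ. Abi3, 114.7 kb from Igf2bp1, went from 0.725 CPM in NC to 2.06 in KO and was called higher (1.45, adjusted p = 0.0123). Its NC mean lay under the level that the filter on low counts asks for, so the NC libraries alone would not have passed it. The Abi3 call held in 6 of 13 alternatives, and not without NC 1 (1.02) or KO 1 (1.30). On log2(TPM + 1) the value was 0.33. Arrdc4, an arrestin relative of Txnip that lies 503.3 kb from Igf1r, rose from 32.9 to 64.4 CPM (0.97, adjusted p = 3.13e-08). Snf8, Ttc23, 4732491K20Rik, Mrpl18, Rpl37a, Tns1, Top2a and Tns4, the remaining neighbours, did not pass. Of these, 4 passed under an alternative. They were 4732491K20Rik without NC 1 (1.51, adjusted p = 0.0255), Mrpl18 without KO 1 (-0.49, adjusted p = 0.0216), Tns4 without NC 2 (0.39, adjusted p = 0.0202), and Rpl37a without KO 1 (-0.31, adjusted p = 0.0126) and with the robust fit (-0.22, adjusted p = 0.0492).

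By the root mean square difference of centred log2 CPM over the 4 libraries, profiles close to that of Igfbp4 were Eef1d (0.0109) and Slc35b1 (0.0157), and those closest to Igfbp1 were Tgfbrap1 (0.00528), Sinhcaf (0.0153) and Ipcef1 (0.0159). The 4 libraries are shared by every gene compared, and likeness over so few of them is a description only.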
